A study of Mus musculus with 8 samples.

Results

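Near-constitutive exons are exons that the spliceosome includes in almost every transcript of their gene, so that the few reads joining the exons on either side directly, without them, count how often an exon was missed. The set described here holds 28180 such exons of 7897 genes, out of 34385 cassette exons with the same length and read depth and 45500 distinct cassette exons in all. An exon entered it when it was at least 28 and under 300 nt long, had at least 50 reads per library on average, and was included at 95% or more in every cell stage in which it passed that read limit. Inclusion was taken from the reads summed over the 4 libraries of a stage, with the reads of each form divided by that form's length, and the row with most reads stood for an exon listed more than once. The members were therefore selected on their own measured inclusion level, and their low skipping is a description, not a result. Of the members, 16622 were found in round spermatids (5914 genes), 22807 in spermatocytes (6836 genes) and 11249 in both stages.

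The libraries came from round spermatids, the haploid cells that follow meiosis, and from spermatocytes, the cells in meiosis, both sorted by Hoechst staining from testes of adult C57BL/6 mice. Each stage had 2 libraries of Larp7 knock-out cells and 2 of wild-type cells. The deposited comparison tables number their sample groups and name no genotype, so the groups are called the first and the second sample group here, and the genotype of each was not inferred. Nothing in the labels says whether replicates came from separate animals, so p-values measure only the spread between these libraries. Each library had between 49904607 and 102000320 reads over all splicing events, and library 2 of the first group was the largest one in each stage. The 125-nt Larp7 exon at chr3:127544154-127544278 (mm10, minus strand), which is no member, was skipped in 99.7% and 99.4% of length-normalised transcripts in the first sample group of round spermatids, against 0% and 0% in the second group. In spermatocytes its skipping was 97.6% and 99.05% in the first group, against 0% and 0% in the second.

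Exons are recognised through short sequences at their edges. The acceptor or 3′ splice site, at the upstream edge, ends the intron with AG after a run of pyrimidines, and the donor or 5′ splice site, at the downstream edge, opens the next intron with GT. U1 small nuclear RNA pairs with the donor first and U6 small nuclear RNA replaces it before the intron is cut out. LARP7 is known for binding and stabilising 7SK RNA and for guiding the 2′-O-methylation of U6 RNA.

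Splice sites of members could be read where an exon edge fell inside a promoter window of RefSeq's table (GRCm38.p6, the assembly that mm10 is drawn from). The window gave 133 acceptor sites and 94 donor sites. All 133 acceptors ended in AG, and 92 donors began with GT and 2 with GC. The 18 bases before that AG were pyrimidines at 74.1% of positions. The edges of 8 exons are shown so that edges of exons with a larger share of skipping reads can be set beside edges of exons with a smaller share. Exon bases are in capitals and intron bases in lower case.

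Rps2 acceptor: cgtccttccggctggtgtagGGC
Rps2 donor: CACgtgagt
Cdk19 acceptor: tgctctatttttatttctagAAA
Cdk19 donor: TAGgtaggt
Tbc1d14 acceptor: gacttttgcttttttgacagATG
Tbc1d14 donor: CAAgtaagt
Ccdc155 acceptor: cctcccctgtgtgtggccagGCT
Ccdc155 donor: CAGgtaggc
Gstm5 acceptor: tctccatcccctgcttttagCTG
Gstm5 donor: AAGgtaatg
Lancl1 acceptor: cctctctgcttacattccagGCA
Lancl1 donor: ACGgtaacc
Rnaseh2a acceptor: gttatttctctctgtaccagTCA
Rnaseh2a donor: TTGgtcagc
Gsg1 acceptor: cttttcctggctcctcgcagAGG
Gsg1 donor: CAGgtgagt

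Over all libraries in which they were members, 1.37% of the raw reads skipped the Rps2 exon (chr17:24719952-24720132, plus strand), 1.32% the Cdk19 exon (chr10:40454015-40454072, plus), 0.943% the Tbc1d14 exon (chr5:36512454-36512548, minus) and 0.838% the Ccdc155 exon (chr7:45188612-45188699, minus). The corresponding shares were 0.0274% for Gstm5 (chr3:107896298-107896373, plus), 0.0169% for Lancl1 (chr1:67020858-67021065, minus), 0.0115% for Rnaseh2a (chr8:84966086-84966287, minus) and 0.00384% for Gsg1 (chr6:135241245-135241397, minus). Each of the 8 exons had AG before it and GT after it. Reads of Rps2, a ribosomal protein gene with processed copies elsewhere in the genome, may be shared with those copies.

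Skipping of members was rare by any count. The median exon had 3 skipping reads over 4 libraries in each stage, and its length-normalised skipping was 0.249% in round spermatids and 0.303% in spermatocytes. A single skipping read was all that was seen for 31.3% of members in round spermatids and 28.8% in spermatocytes. At the other end, 287 exons in round spermatids and 366 in spermatocytes had 100 reads or more of skipping, and these held 33.8% and 33.1% of the skipping reads of their stage. Every cassette exon row in the tables had at least 1 skipping read, so exons that were never seen skipped were not analysed here and the levels above are those of exons missed at least once. In round spermatids 7.80% of members overlapped another member, and in spermatocytes 8.39%, so that such exons can share their skipping reads.

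**Figure D1:**
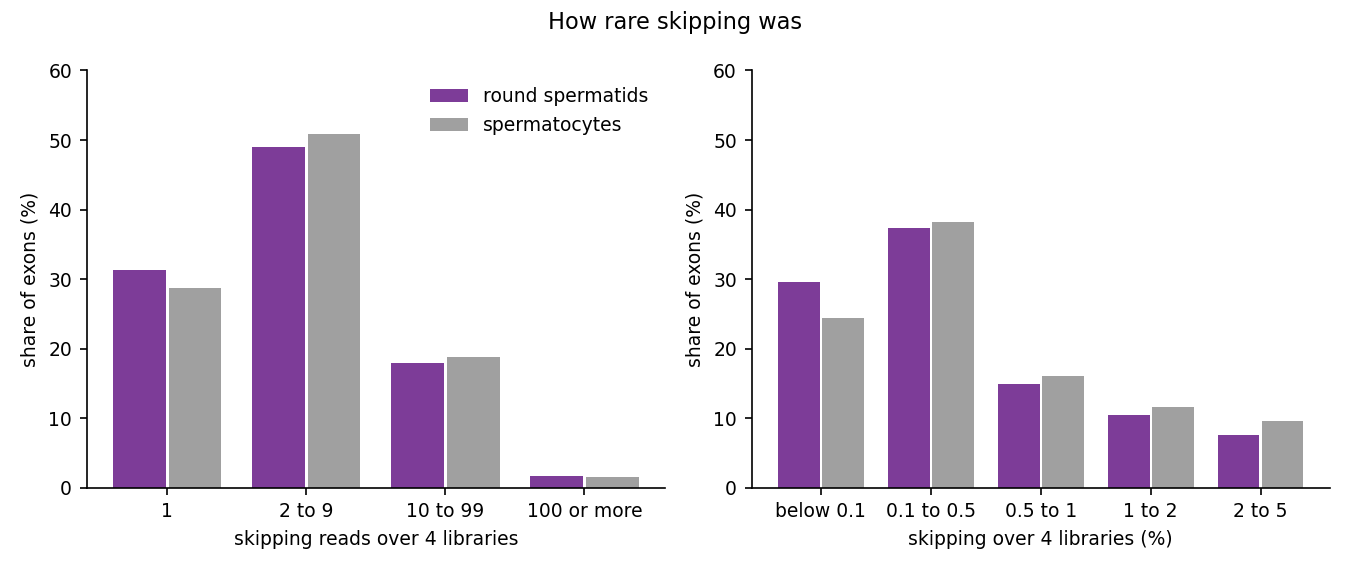
Bars show the share of member exons (%) by the number of skipping reads over 4 libraries (left) and by length-normalised skipping in percent (right), in round spermatids and spermatocytes. Exons with 2 to 9 skipping reads make up 49.0% of members in round spermatids and 50.8% in spermatocytes.

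The members with most reads showed how low the rate of missed exons could be. The 273-nt exon of Pabpc1, which encodes the cytoplasmic poly(A)-binding protein, had 4 skipping reads of 384724 in round spermatids and 2 of 339948 in spermatocytes. Its 111-nt exon had 1 skipping read of 280350 in round spermatids and 1 of 247671 in spermatocytes. The 285-nt exon of Ybx2, which encodes a germ cell RNA-binding protein, had 11 skipping reads in each stage, of 229022 in round spermatids and 303025 in spermatocytes. The 167-nt exon of Meig1, a gene needed for spermatid differentiation, had 4 of 252937 and 11 of 272506. Ldhc encodes the testis lactate dehydrogenase, and its 174-nt exon at chr7:46869599-46869772 was skipped in 27 of 273012 reads in round spermatids and 43 of 365716 in spermatocytes. Levels of skipping in these exons lay far below the median exon, but they were picked for their depth. Every row had at least 1 skipping read, so levels this low could be seen only in exons with many reads. Mean skipping over members fell with depth. In library 1 of the first group of spermatocytes it was 2.12% at 50 to 99 reads per library and 0.330% at 5000 or more.

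The members with most skipping reads were exons of abundant transcripts that came closer to the limit of 5% skipping. Phf7 encodes a reader of histone marks of the male germ line, and its 160-nt exon (chr14:31240274-31240433, minus) was skipped in 2.83% and 2.18% of the first sample group and 2.31% and 1.86% of the second in round spermatids. The groups overlapped there. In spermatocytes the same exon was skipped in 4.23% and 3.63% of the first group and 2.83% and 2.70% of the second, without overlap (log2 odds difference -0.48, adjusted p = 0.281 by limma). Its 117-nt exon was skipped in 3.38% and 2.97% of the first group and 3.10% and 3.41% of the second in spermatocytes, so the groups overlapped. The other exons of this kind belonged to Cetn4, a centrin gene, Rsph1, a radial spoke gene, Rnf126, a ubiquitin ligase gene, and Sh3glb1, which encodes endophilin B1. The Cetn4 exon went the other way in round spermatids, where 2.60% and 1.99% skipping in the first group stood against 3.62% and 3.33% in the second, without overlap (log2 odds difference 0.68, adjusted p = 0.534 by limma), while in spermatocytes the groups overlapped. None of these 6 exons was called between the sample groups in either stage by limma.

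The first sample group missed near-constitutive exons more often than the second in both stages. The mean skipping over member exons was 0.978% and 0.756% in the first group of spermatocytes, against 0.464% and 0.474% in the second (0.867% ± 0.157 against 0.469% ± 0.00746, SD, n = 2 each), a ratio of 1.85. In round spermatids it was 0.692% and 0.640% in the first group, against 0.501% and 0.526% in the second (0.666% ± 0.0366 against 0.514% ± 0.0177, SD, n = 2 each), a ratio of 1.30. The libraries of the groups did not overlap in either stage, and the 2 libraries of the second group lay close together while those of the first group of spermatocytes lay apart. With each exon brought to equal reads in the 4 libraries, 12781 and 10860 exons were calculated to have a skipping read in the first group of spermatocytes, against 7700 and 7777 in the second. In round spermatids the numbers were 7992 and 7717 in the first group, against 6608 and 6534 in the second. Exons within the same limits of length and depth but with inclusion below 95% averaged 46.9% ± 0.106 skipping in the first group of round spermatids, against 46.2% ± 0.245 in the second, and 47.9% ± 0.193 in the first group of spermatocytes, against 46.4% ± 0.140 in the second (SD, n = 2 each). Their shift was thus 0.701 percentage points in round spermatids and 1.44 in spermatocytes, larger than the 0.153 and 0.398 of members, while as a ratio it was 1.02 and 1.03, smaller than that of members. Whether the difference itself differed between the stages was not tested.

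**Figure D2:**
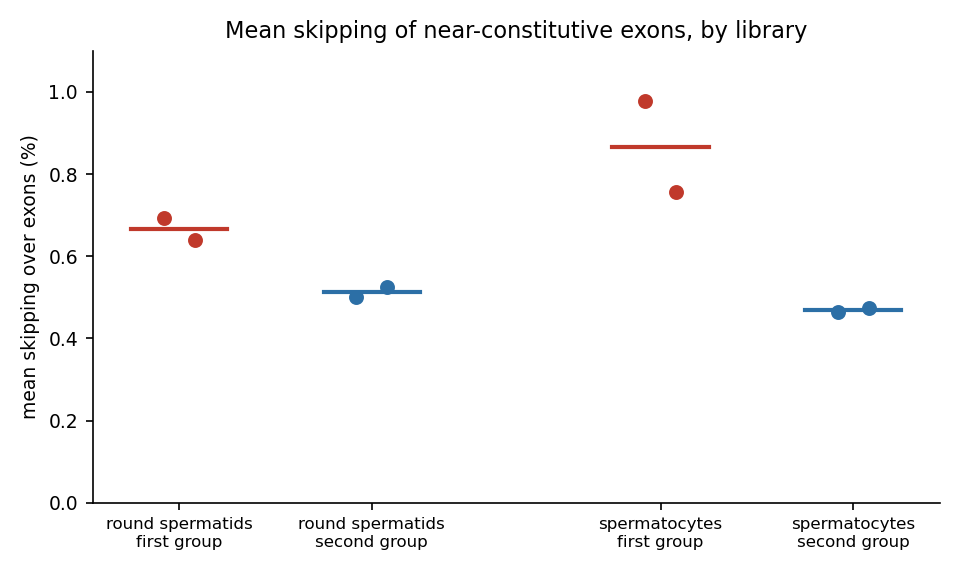
Points are the 8 libraries, and each gives the mean skipping (%) over all member exons of its stage; horizontal bars are the means of 2 libraries. Both first-group libraries lie above both second-group libraries, at 0.640% or more against 0.526% or less in round spermatids and at 0.756% or more against 0.474% or less in spermatocytes.

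Markers of other cells also differed between the sample groups, not all in the same direction. Sums of Sertoli cell genes were higher in the first group in both stages, and those of spermatogonia genes in spermatocytes only. In spermatocytes 7 of 10 listed spermatogonia genes had an event, while Gfra1, Nanos3 and Sall4 had none. They summed to 233 and 60.5 RPM (relative to all event reads) in the first group, against 19.2 and 25.1 in the second. All 7 were higher in the first group. The 5 of 8 Sertoli cell genes with an event summed to 206 and 136 RPM in the first group, against 41.0 and 69.4 in the second, and Sox9, Amh and Rhox5 had no event. The spermatocyte markers themselves summed to 4698 and 4242 RPM in the first group, against 4105 and 3508 RPM in the second. In round spermatids 3 spermatogonia genes with an event summed to 3.57 and 2.44 RPM in the first group, against 4.27 and 3.06 in the second. There 3 Sertoli genes summed to 61.7 and 81.2 RPM, against 38.8 and 49.0 RPM. Of these 3 genes 2 were higher in the first group, as were all 5 in spermatocytes. The sums of 4 Leydig, peritubular and immune cell genes were 28.5 and 20.1 RPM, against 16.9 and 16.1 RPM. Only 1 of these 4 genes was higher in the first group. In spermatocytes the sums of 5 genes of that list overlapped between the groups. Elongating spermatid markers were lower in the first group, with 3 of 6 genes having an event. They summed to 8429 and 10472 RPM in the first group of round spermatids, against 13965 and 10920.5 RPM in the second, and to 1711 and 2072 RPM in the first group of spermatocytes, against 2715 and 2432 RPM in the second. Round spermatid markers in round spermatids summed to 1645 and 1887 RPM in the first group, against 2003 and 1909 RPM in the second. Both first-group libraries were lower in each of these 3 sums. The part of these cells in the differences in skipping was not tested. In sorted bulk cells, fewer cells of a type and less RNA per cell cannot be told apart.

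The rare forms of other event types were compared the same way. Where the inclusion form made up 95% or more, the skipping form of alternative 3′ splice site events averaged 1.80% and 1.41% in the first group of spermatocytes, against 1.09% and 1.14% in the second. For alternative 5′ splice site events the values were 1.76% and 1.51%, against 1.16% and 0.966%. For retained introns that were nearly always retained, the spliced form averaged 2.70% and 2.02% in the first group, against 1.38% and 1.44% in the second. Where instead the intron was nearly always removed, retention averaged 2.82% and 2.60% in the first group, against 2.997% and 2.90% in the second. The groups overlapped where the skipping form was the common one, for alternative 3′ splice sites (2.91% and 2.67%, against 2.73% and 2.73%) and for alternative 5′ splice sites (2.84% and 2.58%, against 2.59% and 2.52%). Of the 8 classes of other spermatocyte events the one of removed introns was the one in which both first-group libraries were below both second-group libraries. In round spermatids, where inclusion was the common form, the skipping form of alternative 3′ splice site events averaged 1.502% and 1.37% in the first group, against 1.23% and 1.30% in the second, and that of alternative 5′ splice site events 1.49% and 1.44%, against 1.15% and 1.13%. The retention of introns nearly always removed averaged 2.63% and 2.41% in the first group of round spermatids, against 2.46% and 2.64% in the second, and the groups overlapped.

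Flanking intron length separated the members further. In the second sample group of spermatocytes mean skipping was higher with longer upstream introns, at 0.384% and 0.380% for introns under 200 nt and 0.568% and 0.661% for introns of 20000 nt or more. In the first group the ends of the scale lay closer together, at 1.05% and 0.817% for the shortest introns and 0.973% and 0.777% for the longest. The ratio of the first group to the second therefore was 2.45 for upstream introns under 200 nt, 2.23 from 200 nt, 2.01 from 500 nt, 1.79 from 1000 nt, 1.73 from 2000 nt, 1.63 from 5000 nt and 1.42 for 20000 nt or more. By the downstream intron it was 2.25 under 200 nt, 2.37 from 200 nt and 1.36 at 20000 nt or more. Round spermatids had smaller ratios, also higher for the shortest introns than for the longest, with values of 1.49 and 1.14 at the ends of the upstream scale and 1.44 and 1.21 at the ends of the downstream scale. In every one of these intron classes, in both stages, both first-group libraries were above both second-group libraries. These are descriptions over exons that share libraries, and no test was made of the trend.

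**Figure D3:**
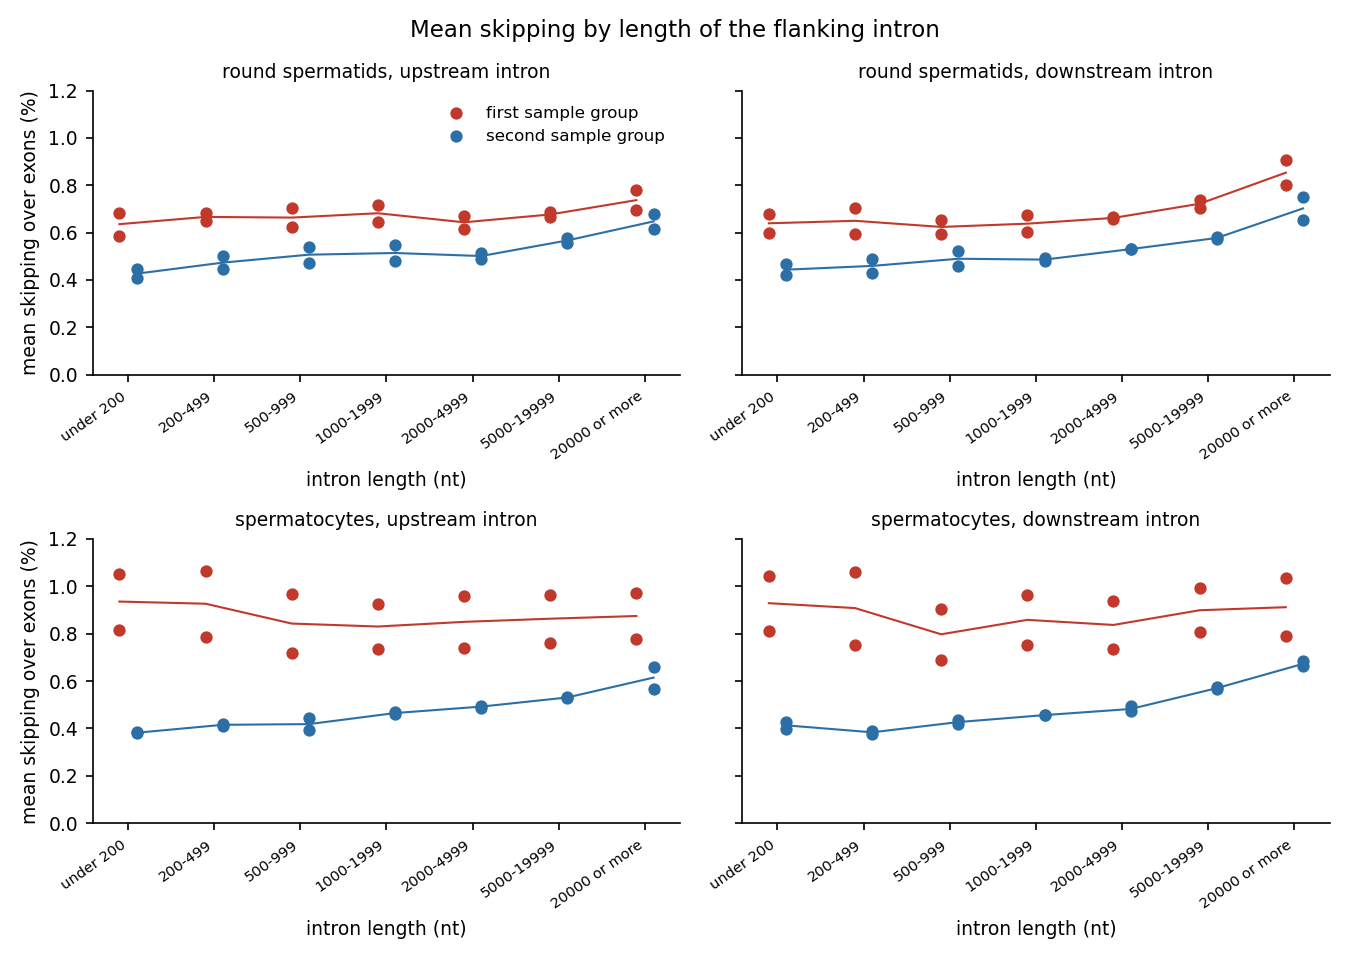
Each point is the mean skipping (%) in 1 library over the members whose upstream (left) or downstream (right) intron, in round spermatids (top) or spermatocytes (bottom), has the length on the x axis (nt); lines join the means of the 2 libraries of a group. Upstream introns under 200 nt give ratios of the first group to the second of 1.49 in round spermatids and 2.45 in spermatocytes, and upstream introns of 20000 nt or more give 1.14 and 1.42.

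Exons with a short intron on each side had the largest ratio. The 2538 spermatocyte members with both introns under 500 nt had mean skipping of 1.13% and 0.879% in the first group, against 0.378% and 0.401% in the second, a ratio of 2.58. The 2158 members with both introns of 5000 nt or more had 0.977% and 0.818%, against 0.614% and 0.648%, a ratio of 1.42. Since exons with few reads have coarser rates, the same classes were set side by side within bands of depth. At 1000 or more reads per library the ratios were 2.25 for short introns and 1.32 for long ones, and from 50 to under 200 reads they were 2.97 and 1.53. In round spermatids the ratios over all depths were 1.57 for 1735 exons between short introns and 1.13 for 1818 exons between long ones.

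By exon length the range in spermatocytes was narrower, with a ratio of 1.55 for exons of 28 to 59 nt and 2.05 for exons of 200 nt or more. Exons whose length is a multiple of 3, whose loss keeps the reading frame, made up 39.0% of members in round spermatids and 36.9% in spermatocytes, against 44.1% in round spermatids and 43.4% in spermatocytes of exons below 95% inclusion. The ratio of the first group to the second was 1.86 in spermatocytes for lengths that are multiples of 3 and 1.84 for the others. Members with less than 0.1% skipping were multiples of 3 in 40.4% of cases in spermatocytes, and members with 1 to 5% skipping in 35.1%. In round spermatids these shares were 40.9% and 38.9%. Among members with 40 or more skipping reads the share was 44.3% in round spermatids and 37.9% in spermatocytes. The classes of skipping level also differed in depth, with medians of 1628 and 234 reads per library in spermatocytes. Exons of the X chromosome, which is silenced during meiosis, made up 1.23% of members in round spermatids and 0.320% in spermatocytes, and 1.38% and 0.336% of the other exons.

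Single exons were tested on the log2 odds of inclusion, first minus second sample group, so that a negative value means more skipping in the first group. All members passed the read filter of the test. In spermatocytes limma called 71 of 22807 members (0.311%) at an adjusted p below 0.05, and all 71 had more skipping in the first group, in 66 genes. The share called over all 61123 tested events of the 5 types was 0.303%, and 0.244% were called with lower inclusion in the first group, so the share of members called lay near that of all events. The median log2 odds difference was -0.71 over members, -0.60 over members with 40 or more skipping reads and -0.40 over all events. Exons with 1 skipping read weigh on the median over members through the reads added before the odds are taken. The medians therefore do not show that members shifted more than all events. Among the 1195 members with 40 or more skipping reads, both first-group libraries were above both second-group libraries for 661 (55.3%) and below them for 70 (5.86%). Over all 6248 cassette exon events with 40 or more reads of each form these shares were 39.2% and 15.2%. The authors' deposited table gave an FDR below 0.05 for 396 spermatocyte members, 378 of them with more skipping in the first group, and 46 of the 71 were among them. With 1 library left out, the spread within groups rested on the 2 libraries of the other group alone. The set of calls was not stable in such fits, and their counts are not given. All 71 calls kept their direction in each of them. At an unadjusted p below 0.05 the fit to all 4 libraries had 1615 members (7.08%), against 8.26% of all events. Of these members 1522 had more skipping in the first group. A quasi-binomial test called 55 members, of which 41 were among the 71, and 570 of all 61123 tested events.

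The strongest calls in spermatocytes were exons that the second group almost never missed. Casc1 encodes an axonemal dynein component, and its 138-nt exon (chr6:145196815-145196952, minus) was skipped in 14 and 46 reads of the first group, or 5.42% and 8.35%, against 0 and 0 reads in the second, which allow skipping of up to 0.667% and 0.763% (counting error only). Its log2 odds difference was -6.01 (SE 0.48, adjusted p = 0.000701). The 190-nt exon of Abcc12, an ABC transporter gene (chr8:86509688-86509877, minus), was skipped in 4.44% and 3.999% of the first group, against 0.206% and 0.0757% of the second. The 111-nt exon of Emc2, which encodes a subunit of the ER membrane protein complex (chr15:43511700-43511810, plus), was skipped in 2.04% and 1.97%, against 0 reads in both second-group libraries, which allow up to 0.302% and 0.306%. Each of the 15 calls with the smallest p had both first-group libraries above both second-group libraries.

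The 133-nt exon of Eef2, the translation elongation factor that moves the ribosome along (chr10:81181493-81181625, plus), lies behind an intron of 82 nt. It was skipped in 169 and 223 reads of the first group, or 2.78% and 2.11%, against 26 and 27 reads, or 0.412% and 0.459%, in the second (5.42-fold; log2 odds difference -2.44, SE 0.24, adjusted p = 0.00286). The 204-nt exon of Calr, which encodes the ER chaperone calreticulin, was skipped in 3.08% and 1.82%, against 0.190% and 0.327%. Calmegin, encoded by Clgn, is a related chaperone of the testis needed for fertile sperm, and its 151-nt exon was skipped in 0.480% and 0.469%, against 0.0153% and 0.0300%. The exon of Stmn1, which encodes the microtubule regulator stathmin, was skipped in 2.19% and 1.70%, against 0.142% and 0.302%. The exon of Bscl2, which encodes the lipid droplet protein seipin, was skipped in 2.58% and 2.98%, against 0.363% and 0.185%. In each of these 5 exons the first group was the higher one in both of its libraries.

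The remaining 7 of the 15 covered membrane, kinase and chromatin proteins. Slc22a21, a carnitine transporter gene, was skipped in 4.99% and 3.59% of the first group, against 0.223% and 0.0862% of the second. Pomt1, a protein mannosyltransferase gene, was skipped in 3.62% and 3.15%, against 0.284% and 0.340%. Ccdc38 had 0.269% and 0.549%, against 0 reads in both second-group libraries, which allow up to 0.0570% and 0.0652%. The 36-nt exon of Supt20, a gene of the SAGA coactivator complex, had 0.991% and 0.859%, against 0.0814% and 0.0942%. Adam32, a sperm surface protein gene, had 2.94% and 3.88%, against 0.733% and 0.796%. Atg9a, needed for autophagosome formation, had 2.18% and 0.934%, against 0 reads in both, which allow up to 0.269% and 0.242%. Mark2, a polarity kinase gene, had 2.74% and 1.49%, against 0.0897% and 0 reads, which allow up to 0.285%. Adjusted p-values of the 15 lay between 0.000701 and 0.0129.

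**Figure D4:**
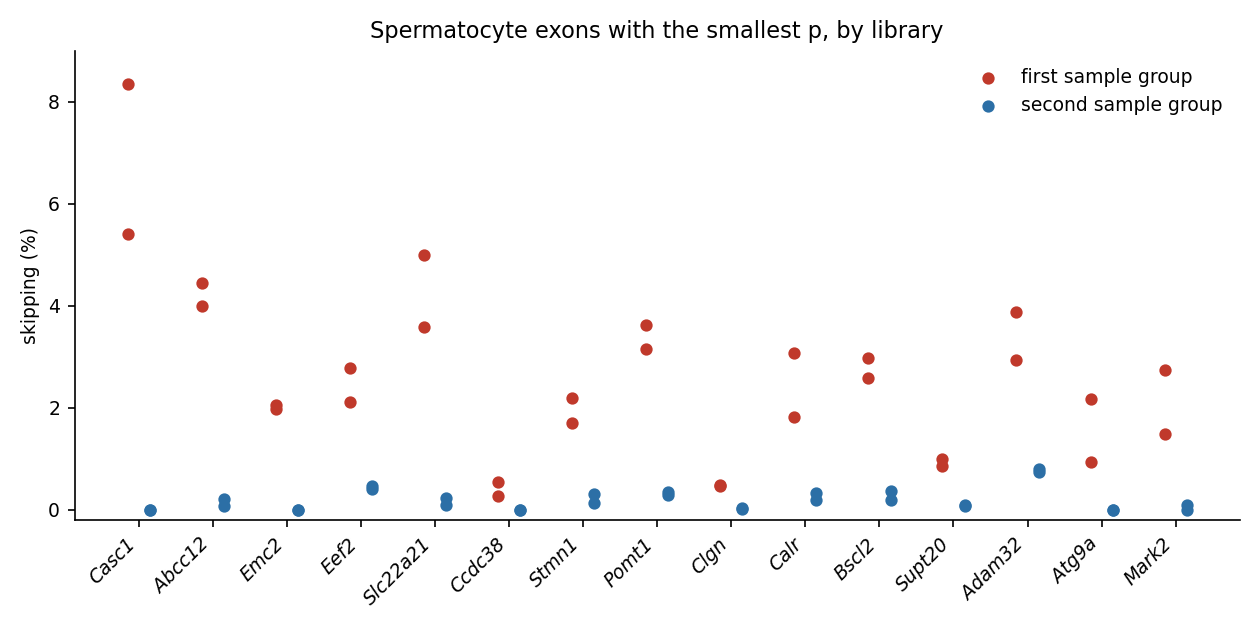
Points give skipping (%) in each of the 4 spermatocyte libraries for the 15 member exons with the smallest p, ordered by p from left to right. All first-group points lie above the second-group points of the same exon, which stay at or below 0.796%.

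The 71 called exons lay between shorter introns than members in general. Their median upstream intron was 803 nt and their median downstream intron 896 nt, against 1714 nt and 1559 nt over all spermatocyte members. Both introns were under 500 nt for 19 of the 71 (26.8%), against 11.1% of all members. Their median depth was 2800 reads per library, against 573 for all members, and since depth limits which exons can be called, these shares describe the called exons only. Members between short introns were called in 0.749% of cases, and members between introns of 5000 nt or more in 0.0463%.

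Calls in spermatocytes were also counted over gene lists for the germ line and for splicing, to be read against the 0.311% called over all members. The counts are small, and no list was tested against the other members. Of 195 members in meiotic genes 3 were called, chosen for naming after their values were seen, as were the other calls on these lists, namely exons of Brdt, a bromodomain protein of spermatocytes, Hormad1, a protein of the chromosome axis, and Stag3, a meiotic cohesin subunit. The Brdt exon was skipped in 2.73% and 3.11% of the first group, against 0.752% and 0.677% of the second. The Hormad1 exon had 0.423% and 0.458%, against 0 reads in both, which allow up to 0.180% and 0.223%. The Stag3 exon had 2.44% and 1.35%, against 0.247% and 0.330%. Of 183 members in acrosome and spermatid genes 3 were called, in Adam3 (7.27% and 6.87%, against 3.34% and 2.13%), Adam32 and Ldhc. A second 174-nt exon of Ldhc, at chr7:46872912-46873085, was skipped in only 0.162% and 0.122%, against 0.0180% and 0.0308%, 5.67-fold higher in the first group. In round spermatids the same Ldhc exon had 0.0261% and 0.0472%, against 0.0167% and 0.0432%, and the groups overlapped.

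Of 658 members in flagellum genes 2 were called, Cfap65 with 5.80% and 6.65% against 1.86% and 2.20%, and Ift122, a gene of transport along the flagellum, with 1.57% and 1.96% against 0.263% and 0.211%. Gtsf1, a piRNA pathway gene, was the 1 call of 139 members, with 0.785% and 0.694% against 0.0635% and 0.0484%. Among 348 members in chromatin genes 3 were called, in Brdt, in Kmt2b, a histone methyltransferase gene, and in Baz2a, a silencing factor gene. Kmt2b had 5.20% and 2.24%, against 0 reads in both second-group libraries, which allow up to 0.827% and 0.832%. By limma 0 of 56 members in 7SK and U6 genes, 0 of 98 in core spliceosome genes, 0 of 143 in splicing regulators and 0 of 63 in nonsense-mediated decay genes were called. At an unadjusted p below 0.05 these 4 lists had 6, 5, 9 and 9 members, where 7.08% of all members had such a p. The quasi-binomial test called 0, 1, 0 and 0. With 0.311% of all members called, a count of 0 in lists of this size does not set them apart. The median log2 odds difference of the lists in spermatocytes ran between -0.86 for decay genes and -0.60 for acrosome and spermatid genes, on either side of the -0.71 of all members. Exons with 1 skipping read weigh on these medians through the added reads, so their order does not rank the lists by size of shift.

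The most-read members of these lists were missed in a handful of reads. The 160-nt exon of Supt5, a transcription elongation factor gene, had 2 and 7 skipping reads in the first group of spermatocytes, against 1 and 1 in the second, and the 99-nt exon of Lsm4, which encodes a subunit of the ring that binds U6 RNA, had 2 and 8, against 1 and 1. The 109-nt exon of Snrpc, which encodes the U1 protein C, had 1 and 2, against 2 and 0, of 27407 reads in all. The 255-nt exon of Hnrnpu, a nuclear RNA-binding protein gene, had 0 and 0, against 1 and 0, of 57200 reads. Srpk1, which encodes a kinase of SR splicing factors, stood apart from them: its 214-nt exon was skipped in 3.47% and 2.63% of the first group of spermatocytes, against 2.58% and 2.50% of the second (adjusted p = 0.763 by limma), and in 1.22% and 0.823%, against 1.38% and 0.470%, in round spermatids. The 125-nt exon of Mael, a piRNA pathway gene, had 3 and 1 skipping reads in spermatocytes, against 0 and 0, of 99740 reads. At 0 to 8 skipping reads per library, differences in the exons other than that of Srpk1 were not detectable at this depth.

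In round spermatids limma called 15 of 16622 members (0.0902%), 14 with more skipping in the first group and 1 with less. Over all 48060 tested events 0.137% were called, and 0.0957% with lower inclusion in the first group, so the share of members called lay below that of all events. The median log2 odds difference was -0.59 over members, -0.29 over members with 40 or more skipping reads and -0.14 over all events. As in spermatocytes, exons with 1 skipping read weigh on the median over members through the added reads. These medians therefore do not show that members shifted more than all events. Of 878 members with 40 or more skipping reads, 318 (36.2%) had both first-group libraries above both second-group libraries and 91 (10.4%) had them below, against 28.4% and 16.8% of all 5279 cassette exon events with that many reads. For round spermatids the authors' deposited table had 95 members with an FDR below 0.05, 85 of them with more skipping in the first group. With 1 library left out the set of calls was again not stable, and counts from such fits are not given. All 15 calls kept their direction in each of them. The fit to all 4 libraries had 674 members (4.05%) at an unadjusted p below 0.05, against 5.28% of all events. The quasi-binomial test called 14 members, of which 10 were among the 15, and 215 of all 48060 tested events.

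The Casc1 exon was again the strongest call, with 2.43% and 10.03% skipping in the first group of round spermatids, against 0 reads in both second-group libraries, which allow up to 0.421% and 0.506% (log2 odds difference -6.37, SE 0.51, adjusted p = 9.14e-08). The 114-nt exon of Atp8b3, a phospholipid flippase gene of the acrosome, was the other exon called in both stages, with 1.40% and 1.62% against 0.475% and 0.357% in round spermatids and 2.57% and 1.80% against 0.794% and 0.564% in spermatocytes. These 2 exons are 13.3% of the calls in round spermatids and 2.82% of those in spermatocytes. The 60-nt exon of Gid4, which encodes the substrate receptor of a ubiquitin ligase (chr11:60424774-60424833, plus), went the other way, with 0.416% and 0.538% in the first group, against 15.7% and 4.96% in the second (log2 odds difference 4.13, SE 0.44, adjusted p = 1.02e-05). The second-group libraries of Gid4 lay far apart, and both were above both first-group libraries.

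The other round spermatid calls had more skipping in the first group. The 30-nt exon of BC051142 was skipped in 3.59% and 5.78% of the first group, against 0.804% and 0.768% of the second. Nbr1, an autophagy receptor gene, had 4.10% and 3.19%, against 0.740% and 0.491%. Akap3, which encodes an anchoring protein of the fibrous sheath and was the 1 call of 499 members in flagellum genes, had 2.43% and 1.46%, against 0.536% and 0.270%. Another exon of Adam32, 62 nt long, had 2.12% and 1.97%, against 0.684% and 0.733%, and was the 1 call of 200 members in acrosome and spermatid genes. Tex36 had 4.22% and 4.24%, against 1.84% and 1.64%. Trp53tg5 had 7.24% and 3.85%, against 0.258% and 0.354%, and 1700007K09Rik had 2.56% and 1.44%, against 0.0753% and 0.0809%. The exons of Vwa3b, Fam184a, 2810408A11Rik, Ubr7 and Scrib completed the calls, with adjusted p-values between 0.00601 and 0.0227. Of the 15 called exons 12 had a length that is a multiple of 3 (80.0%), against 39.0% of all members in the stage and 24 of the 71 called in spermatocytes (33.8%).

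Members present in both stages were compared between round spermatids and spermatocytes over 10782 exons with the same flanking exons in both tables. Mean skipping was 0.669% ± 0.0914 in round spermatids and 0.849% ± 0.260 in spermatocytes (SD, n = 4 each, both sample groups pooled). An exact permutation test over the libraries, which ignored the sample groups, gave p = 0.286. Within the first sample group it was 0.774% and 0.715% in round spermatids, against 1.17% and 0.946% in spermatocytes. Within the second group it was 0.576% and 0.611% in round spermatids, against 0.639% and 0.638% in spermatocytes. Round spermatid libraries were thus lower than the spermatocyte libraries of the same sample group, while over all 8 libraries the stages overlapped.

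Between the stages limma called 632 of these exons (5.86%), 123 with more skipping in round spermatids and 509 with less, where 11.5% of all 34455 tested events were called. An exon was kept at 95% inclusion or more in each stage, by its row with most reads in that stage, which limits large changes. The row compared between stages could be a different one, and no inclusion limit was set on it. With library 1 or 2 of the first spermatocyte group left out there were 350 and 271 calls, with library 2 of the first round spermatid group 293, and with library 1 or 2 of the second round spermatid group 398 and 409. The other 3 libraries left 432 to 455 calls. In each of the 8 fits more of the calls had less skipping in round spermatids than more.

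Some exons were missed in round spermatids more often than in spermatocytes. Rnf17 encodes a germ granule protein, and its 190-nt exon (chr14:56461881-56462070, plus) was skipped in 5.97%, 5.19%, 5.29% and 3.10% of the 4 round spermatid libraries, against 0.193%, 0.355%, 0.189% and 0.222% of the spermatocyte libraries (log2 odds difference -3.999, SE 0.36, adjusted p = 4.46e-10). Ift88, another gene of flagellar transport, had 4.11%, 3.58%, 3.17% and 3.62% in round spermatids, against 0%, 0.169%, 0.791% and 0.224% in spermatocytes. Speer2 had between 4.38% and 5.12% in round spermatids, against 0.239% to 0.681% in spermatocytes. Papola, the gene of a poly(A) polymerase, had 2.87% to 5.64% in round spermatids, against 0.206% to 0.940% in spermatocytes. The Herc4 exon had 8.45% to 16.1% in round spermatids, against 1.69% to 3.52% in spermatocytes, over the row that both tables share, which is not the row that made it a member. None of these exons overlapped between the stages.

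The larger set went the other way. The exon of Tbl2 was skipped in 0%, 0.239%, 0.138% and 0.129% of the round spermatid libraries, against 4.92%, 4.86%, 4.23% and 3.41% of the spermatocyte libraries (log2 odds difference 4.72, SE 0.37, adjusted p = 1.93e-11). The 50-nt exon of Hnrnph1, which encodes a splicing regulator, had 0.173% to 0.640% in round spermatids, against 3.54% to 4.22% in spermatocytes. Acrbp, which encodes a protein that binds proacrosin, had 0.710% to 1.85% in round spermatids, against 3.19% to 4.74% in spermatocytes. Cox6b2, the testis form of a cytochrome oxidase subunit, was called for 5 overlapping exons that share their skipping reads, with 4, 3, 1 and 2 skipping reads in round spermatids, against 56, 143, 20 and 20 in spermatocytes. Its 112-nt exon was skipped in 3.81% and 4.27% of the first group of spermatocytes, against 1.41% and 1.17% of the second. Pebp4, Rnf32 and Slc22a16 were lower in round spermatids as well, each without overlap of the libraries.

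**Figure D5:**
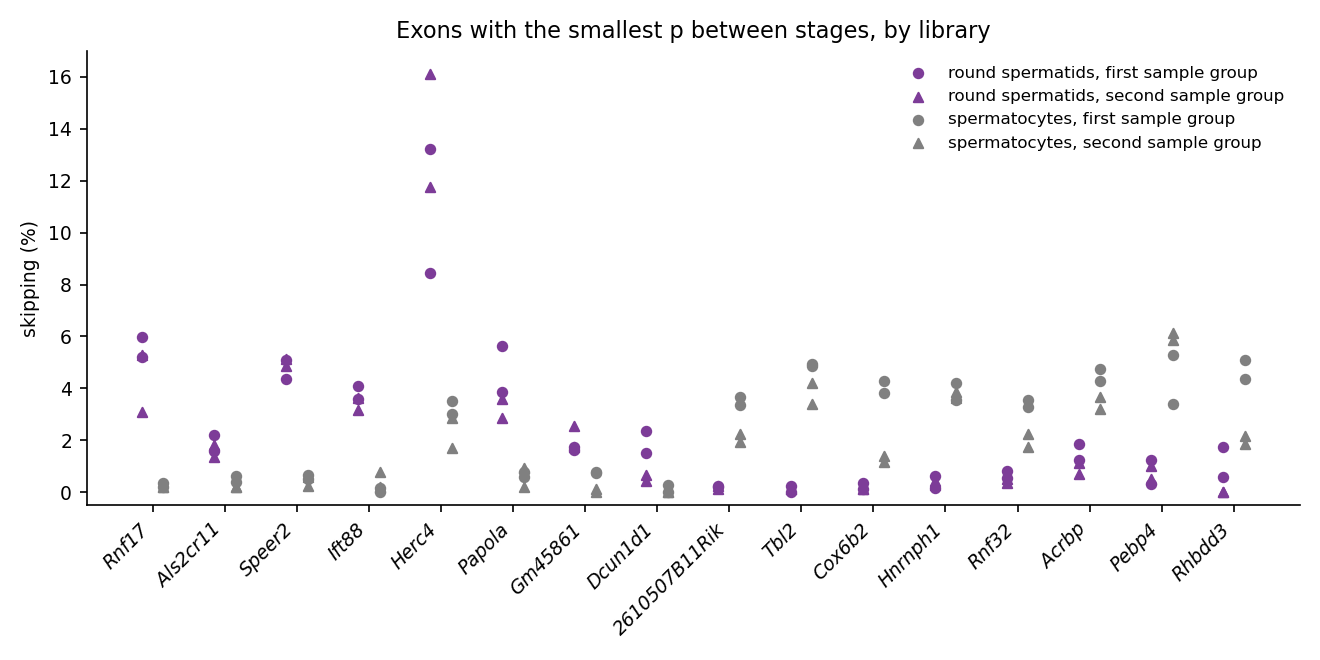
Points give skipping (%) in each of the 8 libraries, for the 8 genes with the smallest p among exons with more skipping in round spermatids (left) and the 8 with less (right); circles are the first sample group and triangles the second. Rnf17 lies at 3.10% or more in round spermatids and at or below 0.355% in spermatocytes, and Tbl2 at or below 0.239% and at 3.41% or more.

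The genes with most members included several that encode axonemal dyneins. Dnah8, which encodes a dynein heavy chain of the sperm tail, had 46 member exons, Dnah14 and Dnah2 had 33 each, Gm11639 had 32, Gm45861 had 31 and Dnah17 had 30. Over the 43 Dnah8 exons of spermatocytes, mean skipping was 0.275% and 0.229% in the first group, against 0.168% and 0.114% in the second, and the single exons ranged between 0.00591% and 2.19%. For 33 Dnah14 exons it was 1.08% and 0.909%, against 0.871% and 0.709%. Over the 25 Gm45861 exons it was 0.664% and 0.661%, against 0.643% and 0.511%. In round spermatids both first-group libraries were above both second-group libraries for Dnah8 and Gm11639. The groups overlapped there for Dnah2, Gm45861, Dnah17 and Dnah14, the last with 0.925% and 0.781%, against 1.14% and 0.385%. Exons of 1 gene share its depth and are not independent.

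The limit of 95% lies in a continuous range. The 4 exons just inside it were in Ddx43 (95.0001% inclusion), Safb2 (95.002%), Huwe1 (95.0025%) and Ptpn13 (95.0035%), all in spermatocytes. The 4 just outside were in Dmc1 (94.9985%) and Ddx11 (94.9977%) in spermatocytes and in Cpne4 (94.9984%) and Lca5l (94.997%) in round spermatids. Larp7 itself had member exons, and these had between 0 and 4 skipping reads in any library.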

How the data were processed

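The authors deposited, per stage, 5 tables of splicing events with inclusion and skipping read counts of 4 libraries, inclusion levels as a fraction, and a p-value and FDR per event; per the file headers, each cell joins the 2 libraries of a numbered sample group by a comma. Reads were aligned with STAR to mm10, per the submitters' processing notes; the sources used here name no counting tool or annotation. The deposited inclusion level difference, a score of first minus second group per the file headers, was not used. Skipping was computed from the deposited counts, divided by the form lengths in the tables. Log2 odds of inclusion over skipping, with 0.5 reads added per form and scaled to the event's reads, were the input to limma (version 3.58.1, run under R 4.3.3). Each value's weight was the inverse of its counting variance at the event's pooled share, with moderation trending on the rarer form's reads. Tables were parsed with Python 3.11.15. Events with a mean of 10 reads per library were tested, with Benjamini-Hochberg adjustment across every tested event. The weighting was chosen on simulated data after counts had been seen. The scripts were tested on simulated data. Members and lists were chosen with earlier results of these data known. Named exons are up to 15 calls per comparison by smallest p, the 6 with most reads, the 6 with most skipping reads, those beside the 95% limit, the 6 genes with most members, and the most-read list members; splice sites shown were chosen after their skipping was seen. With 2 against 2 libraries an exact permutation p cannot go below 0.333, and none is given for means over members between the sample groups.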

Additional observations from a re-analysis of the deposited data

How the results depend on the processing

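No paired analysis was possible because the tables' columns carry no replicate numbers. In spermatocytes 71 members were called by limma; with the moderation trend on total reads 0 were called (1615 had an unadjusted p below 0.05 in the original fit, and the quasi-binomial test called 55), with unscaled added reads 247, without count weights 9, with no filter on mean reads 14, and between 0 and 6614 with 1 library left out. In round spermatids 15 were called, and under the same settings 0 (674 unadjusted, 14 by the quasi-binomial test), 36, 5 and 7, and between 0 and 4114 with 1 library left out. Between stages 632 were called; the quasi-binomial test called 230 (211 of them among the 632), the trend on total reads 417 (386 among them) and the fit without weights 332 (317 among them), and leaving out 1 library gave 271 to 455. Weights from each library's own counts, an alternative chosen after seeing the data, called 64, 12 and 640 (36, 9 and 387 of them among the original calls). All 71, 15 and 632 calls kept their direction under each of these fits. Other limits on reads or inclusion gave 25280 to 29889 members. The first-minus-second difference in mean skipping, 0.398 percentage points in spermatocytes, was 0.192 from summed reads, 0.222 without form lengths and 0.222 as a difference of medians over exons, and 0.287 to 0.509 with 1 library left out. In round spermatids it was 0.153, and 0.0676, 0.0854 and 0.0845 under those settings, 0.102 at 200 or more reads, and 0.127 to 0.178 with 1 library left out. The cause of these shifts was not tested. Members with few skipping reads limit what single exons can show: with 3 skipping reads at the median, most differences were not detectable at this depth.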
